A study of Homo sapiens with 5 samples.

Results

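The host choroid plexus cells described here were mouse cells that came along when human brain organoids were dissected out of mouse brains. They were chosen in 2 steps from the matrices counted on the joint human and mouse reference. A barcode with over 500 mouse UMIs (unique molecular identifiers, each counting 1 captured transcript) and a human share under 20% of its UMIs was taken as a host cell. A host cell with 3 or more UMIs of the mouse genes Folr1 (ENSMUSG00000001827) and Kl (ENSMUSG00000058488) together was taken as a choroid plexus cell. This gave 343 cells of 4961 host cells and 40966 barcodes. Of the 343 cells, 342 were in the library HIP_4MPT and 1 was in PFC_4MPT.

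In the study, day 42 brain organoids from the human embryonic stem cell line H9, carrying a ChR2-EYFP transgene at the AAVS site, were injected into the prefrontal cortex (PFC) or the hippocampus (HIP) of immunodeficient mice. The hosts were 6 to 8 weeks old and are named both SCID and SCID-Beige in the sources. EYFP-positive tissue was cut out under a fluorescence microscope at 2 or 4 months post transplantation (MPT), digested with trypsin and DNase, and sequenced on the 10x Genomics 3′ platform, with ungrafted organoids (D0) beside it. Each group, HIP_2MPT, PFC_2MPT, HIP_4MPT and PFC_4MPT, is 1 library, and D0 was not used here. The paper gives the grafted mice in total, but the number behind each library is not given in the sources used here. With 1 library per group nothing could be tested between groups, and cells of 1 library are not replicates, so every comparison below is a description without a p-value. The intervals are 95% intervals (exact Poisson for levels and ratios, exact Clopper-Pearson for shares) that cover counting error only.

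The choroid plexus is a sheet of epithelium around a vascular core that hangs into the brain ventricles. Its epithelial cells secrete cerebrospinal fluid by moving ions and water from blood to ventricle, form the barrier between blood and cerebrospinal fluid through their tight junctions, and release carriers and growth factors into the fluid. They are known for very high transcript levels of transthyretin, a carrier of thyroid hormone, and for klotho, folate receptor alpha and the serotonin receptor HTR2C.

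The libraries differed sharply in these cells. HIP_4MPT held 342 among its 2071 host cells, 16.5% (14.9 to 18.2%), and PFC_4MPT held 1 among 1202, 0.0832% (0.00211 to 0.463%). HIP_2MPT had 0 among 916 host cells and PFC_2MPT 0 among 772, which allow shares of up to 0.328% and 0.389% when 3 counts are taken as the limit, or 0.402% and 0.477% as upper Clopper-Pearson bounds. Neither Folr1 nor Kl had any UMI in the host cells of HIP_2MPT, and PFC_2MPT had 1 Folr1 UMI, whereas those of HIP_4MPT held 5502 Folr1 and 2342 Kl UMIs. By clustering, 1 host cell of HIP_2MPT and 4 of PFC_4MPT, the chosen cell included, were choroid plexus-like, and 1 host cell of HIP_2MPT held 237 of the 243 Ttr UMIs of its host cells. The median depth was highest where these cells were most frequent, with 1263 mouse UMIs per host cell in HIP_2MPT, 2429.5 in PFC_2MPT, 2450 in PFC_4MPT and 2902 in HIP_4MPT. The last value includes the choroid plexus cells themselves, and the other host cells of HIP_4MPT alone had a median of 2630. The part of depth in these shares was not tested. Graft site, time, the tissue that was cut out and the single library cannot be told apart here.

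The cell in PFC_4MPT had 4518 mouse UMIs, of which 1877 were Ttr, 34 Enpp2, 2 Kl and 1 Folr1, and its barcode was not among those of HIP_4MPT. In that library 3 host cells had more than 10% of their UMIs from Ttr, and the other two carried barcodes that belonged to choroid plexus cells of HIP_4MPT. In all, 5 of the 342 barcodes recurred in PFC_4MPT, where they held 1156 of the 4032 mouse Ttr UMIs of that library, 2 recurred in PFC_2MPT with no Ttr UMI, and none recurred in HIP_2MPT. The rest of the account is of the 342 cells of HIP_4MPT.

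The label was checked against markers outside the rule. Transthyretin (Ttr, ENSMUSG00000061808) had at least 29 UMIs in each of the 342 cells, a median of 6692 and a highest of 78586. Autotaxin (Enpp2, ENSMUSG00000022425), a secreted enzyme that makes lysophosphatidic acid, had 0 UMIs in the lowest cell, a median of 81 and a highest of 1386, and was seen in 339 cells. Ttr took 57.8% of all mouse UMIs summed over the choroid plexus cells, 577880 CPM (577180 to 578580), where CPM are counts scaled to a common total per group,, and 21614 CPM (21486 to 21743) in the other 1729 host cells of the library. The Ttr share of single cells ran from 1.37 to 74.7% with a median of 58.3%, and 317 of the 342 cells were over 40%. Among the other host cells the median share was 0.423%. When all host cells of the grafts were clustered, 338 of the 342 fell into 2 clusters named choroid plexus epithelium-like from a fixed list of markers, which includes Folr1 and Kl and so draws in part on the rule, and 1 each fell into clusters that were microglia-like, oligodendrocyte-like, endothelium-like and mural cell-like.

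**Figure D1:**
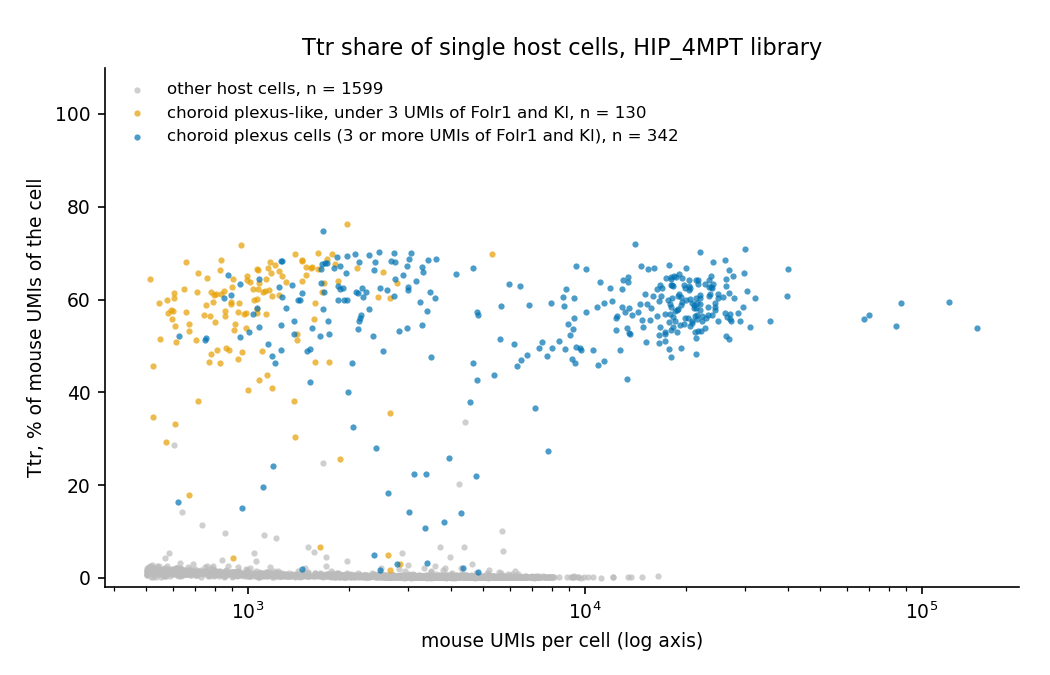
Each point is 1 host cell of HIP_4MPT, with its mouse UMIs on a log axis and the share of Ttr in them. The 342 choroid plexus cells (blue) lay mostly above 40% over the whole range of depth, 130 shallow choroid plexus-like cells below the limit of 3 UMIs (orange) lay at the same height, and the other 1599 host cells (grey) had a median of 0.394%.

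The limit of 3 UMIs cut through a continuous set of cells. The 37 cells with exactly 3 UMIs of Folr1 and Kl had a median of 1876 mouse UMIs and a Ttr share of 56.7%, and 36 of them were choroid plexus-like. Just outside, the 46 host cells with 2 UMIs had a median of 1163.5 mouse UMIs and a Ttr share of 57.0%, with 40 choroid plexus-like, and the 101 cells with 1 UMI had 38.1% and 57 choroid plexus-like. Cells with no UMI of either gene numbered 1582, with a median Ttr share of 0.397%, and 33 of them were choroid plexus-like. In all, 130 choroid plexus-like cells of the library lay outside the rule and therefore count among the other host cells, where they held 77.5% of the Ttr UMIs. Of the chosen cells 284 had both transcripts, 50 had Folr1 alone and 8 had Kl alone.

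The choroid plexus cells fell into a shallow and a deep group. Of the 342, 119 had at most 4000 mouse UMIs (median 1977) and 223 had more (median 18183), while the other host cells had a median of 2630 and a highest of 16502. The 342 cells therefore made up 16.5% of the host cells of the library and 47.7% of their mouse UMIs. The Ttr share was alike in both groups, with medians of 59.9 and 58.1%. The human share was not, at 8.88% in the shallow group and 0.651% in the deep group. The 9 cells over 32000 UMIs, all choroid plexus-like, reached 145892 UMIs and 7698 genes, with Ttr shares of 53.9 to 66.5%. Among them the cell of 86921 UMIs held 96 UMIs of microglia markers, and the others held 3 to 11. The cell of 69913 UMIs had a human share of 5.09%, and the others lay between 0.444 and 0.773%. No doublet caller was run, and whether such barcodes held more than 1 cell was not tested. Of all 342 cells, 273 were left without those holding 5 or more UMIs of other types' markers.

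Mouse Ttr UMIs were not limited to the choroid plexus cells. All 1729 other host cells and 7070 of the 7078 human barcodes of that library (human share over 80%) had a mouse Ttr UMI, with medians of 11 and 10 UMIs. In PFC_2MPT none of 772 host cells had one. The mix of plexus transcripts in these barcodes was close to that of the choroid plexus cells for Ecrg4, with 122 Ttr UMIs per Ecrg4 UMI in them (120 to 124), 116 in microglia-like cells (96.8 to 141) and 124 in human barcodes (115 to 133). For Sostdc1 the ratio was 253 in the choroid plexus cells (249 to 258) and 468 in human barcodes (408 to 539). The shallow choroid plexus cells were at 474 (421 to 535) and the deep ones at 247 (243 to 252). Oligodendrocyte-like cells stood apart for Enpp2, with 4.32 Ttr UMIs per Enpp2 UMI (3.99 to 4.68) against 73.7 in the choroid plexus cells (73.0 to 74.5).

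Thinned to 1000 mouse UMIs, 332 of the choroid plexus cells and 689 microglia-like cells could be compared (10 and 249 cells were shallower), the latter as a type that should lack plexus genes. Ttr was in 100% and 94.3% of them, so its presence did not separate them. Enpp2 was in 98.5% (96.5 to 99.5) of the choroid plexus cells and 4.35% (2.96 to 6.16) of the microglia-like cells. Sostdc1 was in 75.6% and 0.871%, Htr2c in 31.3% and 0.290%, Kcnj13 in 26.8% and 0.290%, and Otx2 in 11.7% and 0.145%. Other types held Enpp2 more often than microglia-like cells, at 56.1% of 246 oligodendrocyte-like and 16.1% of 87 endothelium-like cells. Without thinning these shares in the choroid plexus cells were 99.1% for Enpp2, 93% for Sostdc1, 68.1% for Htr2c, 76.6% for Kcnj13 and 57.6% for Otx2, at a median depth of 11656.5 UMIs, and in microglia-like cells 10.2%, 3.95%, 0.853%, 0.746% and 0.107% at 2924.5 UMIs.

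Genes were compared between the summed choroid plexus cells (4588879 mouse UMIs) and the summed other host cells (5024832). Because Ttr took most of the first sum, it lowered the CPM of every other gene there. In CPM of all mouse UMIs, 436 of 10162 genes with 50 UMIs or more were 4-fold higher in the choroid plexus cells (4.29%) and 3560 were 4-fold lower (35%), with a median log2 ratio of −1.53 over all genes. With Ttr left out of both totals, 851 were higher (8.37%) and 1784 lower (17.6%), with a median of −0.42. The levels below are on this second scale, CPM without Ttr, and "higher" and "lower" mean past 4-fold in CPM without Ttr + 1. All the ratios are between the cells the rule chose and the rest, of which 54.3% were microglia-like. On the first scale each ratio is 2.32 times lower, so Slc12a2, Slco1c1, Rfx3, Vcam1, Bst2, Ifi27 and Prdx5, named below as higher, are not past 4-fold there, and Apoe and Ptgds change sides.

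The 15 genes that were highest against the other host cells, by the ratio of CPM + 1 over all mouse UMIs among genes with 100 UMIs and 50 CPM or more, were Steap2, Sostdc1, Kl, Htr2c, Otx2os1, Folr1, Trpm3, Prlr, F5, Calml4, 2900040C04Rik, Frmpd4, Kcne2, Mia and Ecrg4. Folr1 and Kl are there because the rule chose on them. Sostdc1, a secreted inhibitor of BMP and Wnt ligands, was at 5404 CPM without Ttr in the choroid plexus cells and 47.0 in the other host cells, 115-fold higher (101 to 132). Htr2c was 114-fold higher (87.8 to 152), at 1303 against 11.4 CPM. Trpm3, a cation channel, was 80.8-fold higher (70.8 to 92.7), and Steap2, a metal reductase, had 365 UMIs in 168 choroid plexus cells and 3 UMIs in the other host cells, 309-fold (105 to 1504). Otx2os1, the transcript opposite Otx2, was 117-fold higher (75.8 to 189). The choroid plexus-like cells outside the rule held 174 of the 231 Sostdc1 UMIs of the other host cells, 39 of the 56 of Htr2c and 159 of the 225 of Trpm3. Folds of plexus genes therefore depend on these cells. Without them in the comparison, Sostdc1 was 460-fold higher, Htr2c 372-fold, Atp1b1 114-fold and Enpp2 76.9-fold. Otx2 was 399-fold higher with 3 UMIs left in the comparison, while Slc12a2 (5.27-fold) and Bst2 (8.73-fold) moved little.

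Genes that move ions and water were mostly higher. Of 22 listed ion and water transport genes, 20 had 50 UMIs, 15 were higher, none was lower, and the median log2 ratio was 3.79 against −0.42 for all genes. With Ttr in the totals 13 were higher and 2 lower. The sodium pump was represented by its beta subunit Atp1b1 (1273 against 23.2 CPM, 54.9-fold, 45.5 to 66.8) and its regulator Fxyd1 (2958 against 90.1 CPM, 32.8-fold). Bicarbonate carriers followed, with Slc4a10 at 65.9-fold (50.1 to 88.4) and Slc4a5 at 56.6-fold. The bicarbonate-forming enzymes Car12 and Car14 were 58.9- and 12.1-fold higher, while Car2 was at 444.5 CPM against 598.4. Potassium channels Kcnj13 and Kcne2 were at 801 and 403 CPM against 11.6 and 5.09. Slc12a2, the sodium, potassium and chloride cotransporter of the ventricular face, was 5.09-fold higher, and its activating kinase Stk39 14.1-fold. Slc12a2 was at 572 CPM in the choroid plexus cells and 351 CPM in oligodendrocyte-like cells. In thinned cells, with Ttr among the UMIs, Slc12a2 was in 20.2% (16 to 24.9) of the choroid plexus cells. It was in 31.7% (25.9 to 37.9) of oligodendrocyte-like, 3.92% of microglia-like and 1.15% of endothelium-like cells. The water channel Aqp1 was 38.7-fold higher (25.4 to 61.9). Wnk1 (106 against 281 CPM) and Slc4a7 (20.7 against 30.9 CPM) were on the other side of equality.

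**Figure D2:**
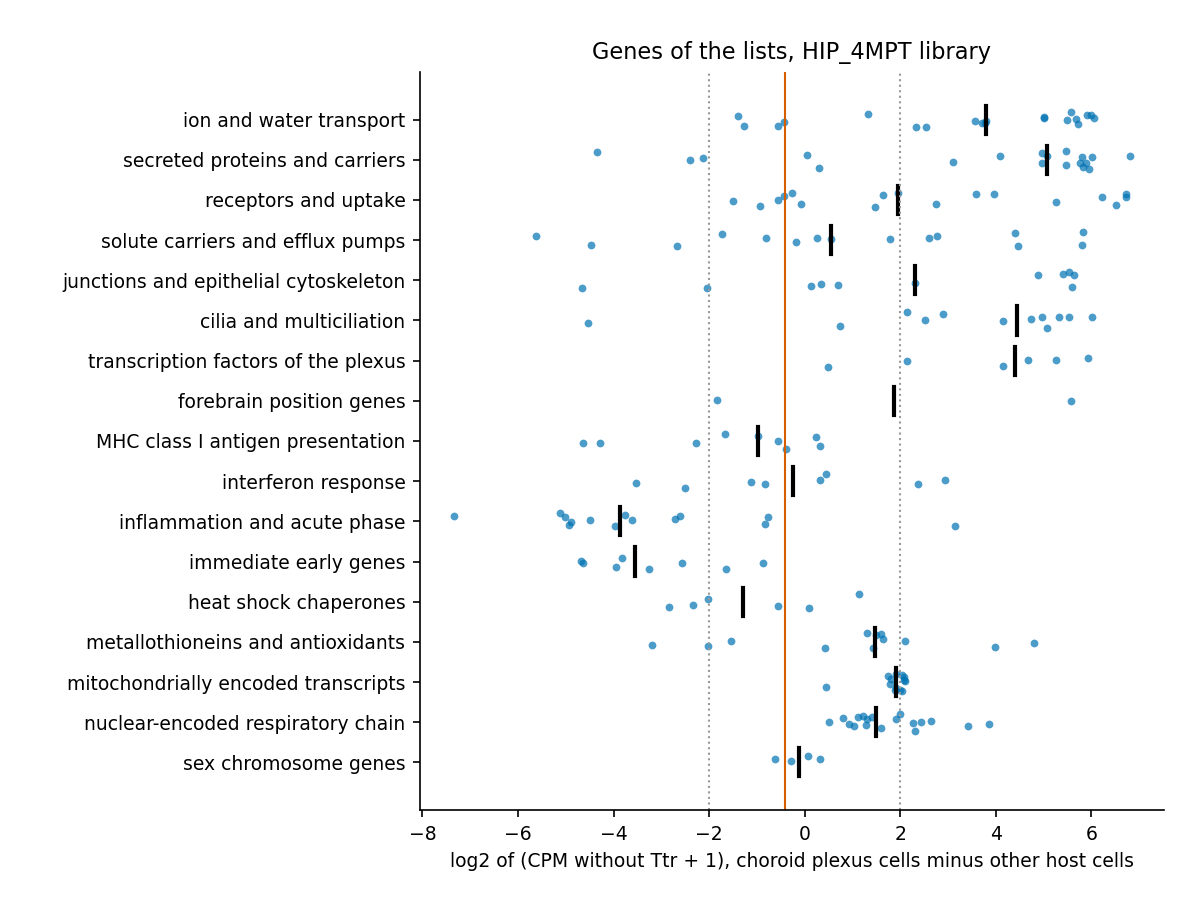
Each point is 1 gene of a fixed list with 50 UMIs or more, by its log2 ratio of CPM without Ttr + 1 in the choroid plexus cells over the other host cells, the black bar is the median of the list, the orange line the median of all genes (−0.42), and the dotted lines mark 4-fold. The lists for transport, secreted proteins, cilia and plexus transcription factors had medians of 3.79 to 5.07, and the lists for inflammation and immediate early genes had medians of −3.87 and −3.54.

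Secreted proteins and carriers, the list that holds Ttr, were mostly higher. Of 19 measured genes of that list, 14 were higher and 3 lower, with a median log2 ratio of 5.07. Beside Ttr and Enpp2 (18567 against 417 CPM, 44.6-fold, 42.6 to 46.6), Ecrg4, a secreted peptide precursor, was at 11225 against 172 CPM (65.3-fold). The chaperone-like Clu was at 6838 against 217 CPM, Igfbp2, a binding protein of insulin-like growth factors, at 4945 against 82.0 CPM, and Igf2 itself at 699.5 against 21.4 CPM (32.8-fold, 26.8 to 40.3). Insulin 2 (Ins2) had 337 UMIs in 152 cells and 11 UMIs in the other host cells, 77.8-fold (42.9 to 157). The protease inhibitors Spint2 and Wfdc2 were 58.1- and 58.0-fold higher, and Bmp6 and Bmp7 40.5- and 27.0-fold. The 3 lower genes were Cst3, Trf and Cp. Cst3, a protease inhibitor, was at 13597 CPM against 59630 in all other host cells, 99702 in microglia-like and 4121 in endothelium-like cells. Trf, the iron carrier transferrin, was 5.32-fold lower, and Cp, the copper oxidase ceruloplasmin, had 3 UMIs against 249. Apoe and Ptgds were close to equal, at 10323 against 8426 CPM and 7159 against 6888 CPM.

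Receptors were mixed. Of 19 listed genes for receptors and uptake, 17 could be compared, 8 were higher and none lower, with a median log2 ratio of 1.95, and these 8 included Folr1 and Kl. The prolactin receptor Prlr was 84.9-fold higher (61.2 to 121), the leptin receptor Lepr 19.6-fold, and the retinol uptake receptor Stra6 16.0-fold. Receptors common to many cells were near equality, such as Igf1r at 186 against 195 CPM and Fcgrt at 86.7 against 104 CPM. The transferrin receptor Tfrc was at 7.23 against 22.4 CPM. Lrp2, the endocytic receptor megalin, had 0 UMIs in either group, and Cubn 3 in each.

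Junction genes were set beside those of the other brain barrier, the endothelium. The 102 endothelium-like cells of the library, with 339885 mouse UMIs, served for comparison. Claudins Cldn1, Cldn2 and Cldn3, tight junction proteins of epithelia, were at 150, 221 and 119 CPM in the choroid plexus cells and at 0, 2.98 and 0 CPM in endothelium-like cells, whereas Cldn5, the claudin of brain endothelium, was at 4.65 and 2047 CPM. The epithelial keratins Krt8 and Krt18 were at 84.7 and 403 CPM and had 0 UMIs in endothelium-like cells. Tjp1, a junction scaffold, was at 24.8 against 687 CPM. Of 14 listed junction and cytoskeleton genes 11 could be compared, 6 were higher and 2 lower (Cldn5 and Tjp1) against all other host cells, with a median of 2.32. The epithelial cadherin Cdh1 had 5 UMIs in the choroid plexus cells and 1 in the others.

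Of 16 listed solute carriers and efflux pumps, 15 could be compared, 6 were higher and 3 lower, with a median of 0.55. With Ttr in the totals 4 were higher and 4 lower, and the median was −0.60. Over all compared genes 8.37% were higher and 17.6% lower, and with Ttr in the totals 4.29% and 35%. The sulfate carrier Slc13a4 (77.9-fold), the lactate carrier Slc16a8 (85.7-fold), the thyroid hormone carrier Slco1c1 (6.95-fold) and the sugar carrier Slc2a12 (24.4-fold) were among those higher. Slco1c1 was nevertheless at 424 CPM in the choroid plexus cells and 759 in endothelium-like cells. Abcb1a, the drug efflux pump P-glycoprotein, had 2 UMIs in the choroid plexus cells (1.03 CPM) against 628 CPM in endothelium-like cells, Abcg2 was at 12.4 against 967 CPM, and the glucose carrier Slc2a1 at 86.7 against 3428 CPM. Slco1a5 had 27 UMIs in the choroid plexus cells and 0 in the other host cells, or at least 22.8-fold higher when 3 counts are taken as the floor of the group.

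**Figure D3:**
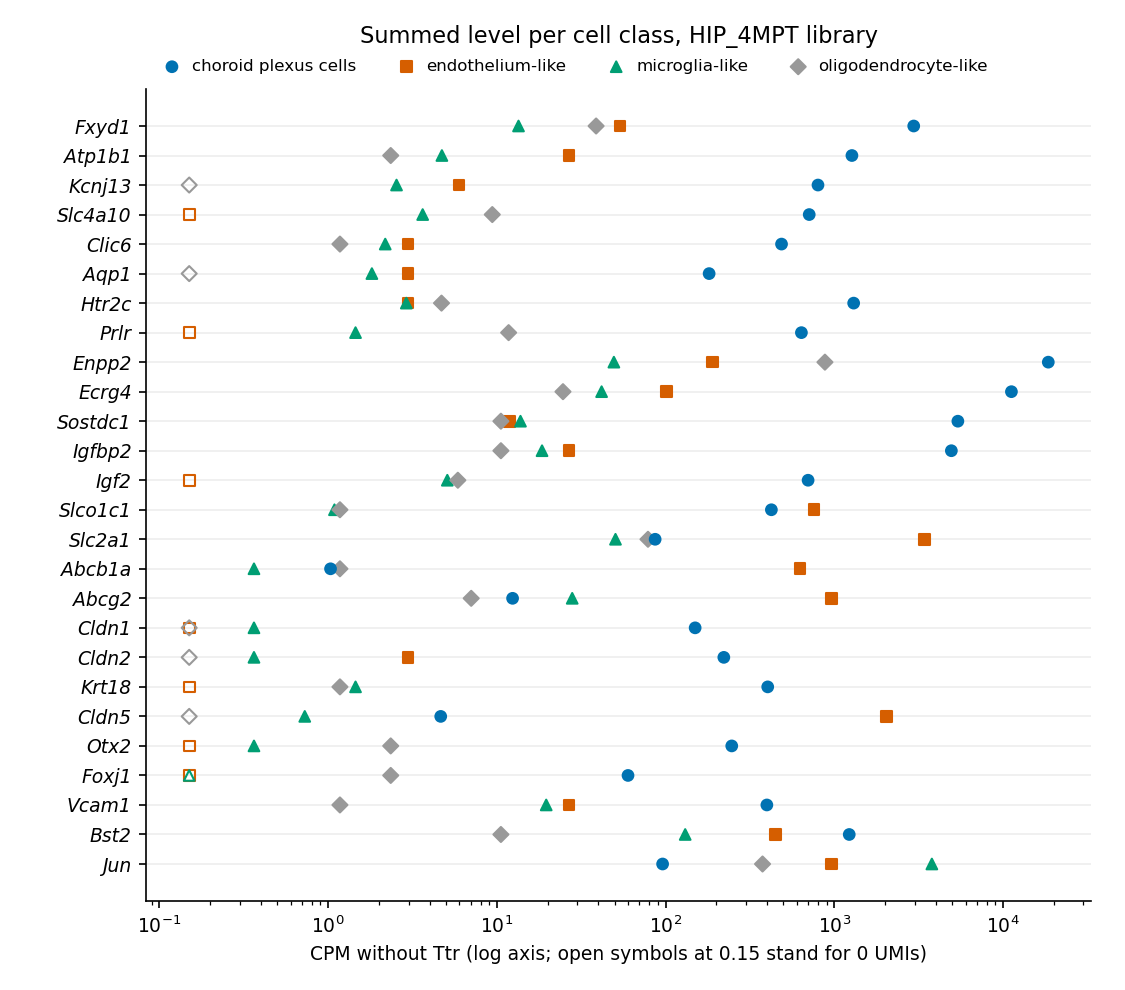
Summed level of 26 genes in CPM without Ttr on a log axis, for the 342 choroid plexus cells and the endothelium-like, microglia-like and oligodendrocyte-like cells of HIP_4MPT, with open symbols for 0 UMIs. The 13 genes from Fxyd1 to Igf2 were highest in the choroid plexus cells, whereas Slco1c1, Cldn5, Abcb1a, Abcg2 and Slc2a1 were highest in endothelium-like cells and Jun in microglia-like cells.

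Epithelial cells of the plexus bear tufts of cilia. Of 18 listed cilia genes 12 could be compared, 10 were higher and 1 lower, with a median log2 ratio of 4.44. The regulators Gmnc and Foxj1 were at 131 against 1.83 CPM (71.3-fold, 37.0 to 158) and 59.9 against 2.44 CPM (24.5-fold, 13.5 to 48.9). The axoneme genes Spag16, Rsph1, Tekt1 and Pifo were 93-, 45.9-, 49.8- and 88.2-fold higher. Tppp3 was 27.8-fold lower, and oligodendrocyte-like cells held 473 of its 635 UMIs in the other host cells. It was at 4.65 CPM in the choroid plexus cells (9 UMIs), 1.45 in microglia-like (4 UMIs) and 2.98 in endothelium-like cells (1 UMI). The ependymal transcripts Ccdc153 and Tmem212, and the centriole gene Deup1, had 0 UMIs in the 342 cells and also in the other host cells, and Mcidas and Ccno had 0 UMIs against 1 each. Of the ependymal marker list as a whole, 3 of 6 compared genes were higher (Dynlrb2, Rsph1 and Mia) and Tppp3 was lower.

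Transcription factors were seen in fewer UMIs. Of 9 listed plexus factors 6 could be compared and 5 were higher, namely Otx2 (247 against 3.05 CPM, 80.9-fold, 48.5 to 146), Lmx1a (42.8-fold), Msx1 (43.0-fold), Foxj1 and Rfx3. Lmx1b had 0 UMIs. Position along the brain was read from 12 genes. Six3, a factor of the anterior forebrain, had 109 UMIs in 80 choroid plexus cells and 1 UMI in the other host cells, a ratio of 277 (48.6 to 11026), and Otx1 had 22 UMIs against 1. Emx1, Emx2 and Lhx2 had 9, 5 and 4 UMIs against 10, 11 and 49. The 6 hindbrain genes Hoxa2, Hoxa3, Hoxb2, Hoxb3, Hoxd3 and En2 had 0 UMIs in 4588879. A count of 0 allows up to 3, and the other host cells had 11 UMIs of these genes.

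Genes of energy metabolism lay above equality without Ttr, most of them short of 4-fold. All 13 mitochondrially encoded transcripts were above equality without Ttr, between 1.37-fold (mt-Atp8) and 4.37-fold (mt-Nd6), with a median log2 ratio of 1.92, and 5 were past 4-fold. With Ttr in the totals the median was 0.71, none was past 4-fold and mt-Atp8 was at −0.75. Their share of the UMIs other than Ttr had a median of 11.4% in single choroid plexus cells and 3.51% in other host cells. Of 18 nuclear genes of the respiratory chain, all were above equality and 6 past 4-fold, led by Ndufa1 (2840 against 194 CPM, 14.6-fold) and Ndufa4 (5039 against 467 CPM, 10.8-fold). With Ttr in the totals these 2 alone were past 4-fold, the median log2 ratio was 0.29, and Sdhb, Sdha, Ndufv1, Ndufs1 and Uqcrc1 were below equality. The 10 genes with the most UMIs in the choroid plexus cells were Ttr, mt-Cytb, mt-Co3, mt-Co1, Enpp2, mt-Co2, mt-Atp6, Cst3, mt-Nd4 and Bsg, the last a chaperone of lactate carriers, at 11595 against 1157 CPM. Bsg was at 8536 CPM in endothelium-like, 538 in microglia-like and 268 in oligodendrocyte-like cells.

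Inflammation genes were mostly lower than in the other host cells, and the interferon list was mixed. Of 14 compared inflammation genes 11 were lower and 1 higher, with a median of −3.87. The higher gene was Vcam1, an adhesion molecule for leukocytes, with 772 UMIs in 217 choroid plexus cells, 398.5 against 44.3 CPM (8.99-fold, 7.72 to 10.5). Spp1 had 4 UMIs against 2443, Lcn2 3 against 398, Ccl2 1 against 254, and Serpina3n 0 against 141, which is at least 18.5-fold lower with 3 counts as the floor. Among 8 compared interferon genes Bst2 (1227 against 158 CPM, 7.76-fold) and Ifi27 (1150 against 222.5 CPM, 5.17-fold) were higher. Another 2 of this list were lower, among them Isg15. With Ttr in the totals none was higher and 3 were lower. Of all compared genes, 8.37% were higher and 17.6% lower without Ttr, and 4.29% and 35% with it, beside which the counts of such short lists are to be read. In class I antigen presentation, 3 of 9 genes were lower, and 5 with Ttr in the totals. B2m was at 492 against 974 CPM, H2-D1 at 349.5 against 1692, and the immunoproteasome subunits Psmb8 and Psmb9 had 7 and 3 UMIs against 559 and 239.

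Of the 8 immediate early genes, all were below equality and 6 past 4-fold. Jun was at 96.0 CPM, against 3789 in microglia-like and 964 in endothelium-like cells, and Fos at 768 CPM, against 3274 and 1476. Of 6 heat shock chaperones 3 were lower (Hspa1a, Hspa1b and Dnajb1) and none higher, beside 17.6% lower and 8.37% higher over all compared genes. Metallothioneins diverged, with Mt3 16.0-fold higher, at 3388 against 212 CPM, Mt1 4.06-fold lower and Mt2 9.82-fold lower. Of the other antioxidant genes Gpx8 was 28.9-fold higher (24.0 to 35.1) and Prdx5 4.28-fold. The Y-linked genes Ddx3y, Eif2s3y, Kdm5d and Uty had 302 UMIs in 156 choroid plexus cells. Xist had 6 UMIs in 6 cells, of which 4 also had a Y-linked UMI, and 0 in the other host cells.

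The 10 genes that were lowest against the other host cells in CPM of all mouse UMIs, among those at 200 CPM or more there, were Hbb-bs, Spp1, Cd74, Lyz2, Rgs1, Pcdh9, Ccl12, Cd83, Selplg and Pde4b, genes of red blood cells, myeloid cells and oligodendrocytes. Hbb-bs had 5 UMIs against 5384, and Cd74, the invariant chain of MHC class II, 2 against 1788.

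Markers of other cell types were present at low level. All 9 microglia markers had UMIs in the choroid plexus cells, 1050 in sum or 542 CPM without Ttr against 24365 in the other host cells. The 6 oligodendrocyte markers summed to 306 UMIs (158 against 5758 CPM). The 6 endothelium markers summed to 180 UMIs, of which 140 were Slco1a4, and Pecam1 and Cdh5 were at 0. The 6 mural cell markers summed to 114, of which 105 were Vtn, and Myh11 was at 0. Of the 7 plexus stroma and fibroblast markers Col1a1, Col3a1, Lum and Slc6a13 were at 0, Dcn had 1 UMI, and Col1a2, the most abundant, had 58 (29.9 against 3.86 CPM). The astrocyte list had 92 UMIs, led by Aldoc, with Aqp4 at 0, and the neuron list 34, of which 31 were Syt1. Monocyte, border macrophage, T and NK cell and B cell lists had 1, 2, 2 and 4 UMIs, the MHC class II list 30, the red blood cell list 35 and the oligodendrocyte progenitor list 48, of which 40 were Pdgfra. C1qa, a microglial complement gene, was at 876 CPM (714 to 1064) in the shallow choroid plexus cells and 101 CPM (87.0 to 117) in the deep ones, and its part in any level above was not tested.

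Human transcripts in the choroid plexus cells came to 85110 UMIs. MALAT1 was the most abundant, at 2.33% of them against 4.75% in the human barcodes of the library, followed by mitochondrial and ribosomal transcripts, and human TTR had 0 UMIs. By the same limit of 3 UMIs on human FOLR1 and KL, no human barcode of any graft library qualified.

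The shallow and the deep choroid plexus cells shared the main transcripts but not in equal measure. Enpp2 was at 15349 CPM (14645 to 16077) in the shallow and 18773 (18575 to 18973) in the deep cells. Ecrg4 was at 7911 against 11437 CPM, Sostdc1 at 2353 against 5599 CPM (2083 to 2649 and 5491 to 5709) and Htr2c at 764 against 1337 CPM. Igf2 was higher in the shallow cells, at 1108 (925 to 1317) against 673 CPM (636 to 712), and so was Clu, at 8125 against 6756 CPM. The mitochondrial share of UMIs other than Ttr had medians of 6.55 and 12.9%. The split at 4000 UMIs was chosen after the depths had been seen.

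For the spread among single cells, 232 choroid plexus cells with enough depth were thinned to 2000 UMIs other than Ttr. Of 534 genes with a mean of 0.5 UMIs or more, the 10 with the highest ratio of variance to mean were Malat1, mt-Cytb, mt-Co2, mt-Co3, mt-Nd4, mt-Co1, Gm42418, mt-Atp6, Cst3 and Enpp2. Malat1, a nuclear RNA, had a ratio of 42.6, with 0 UMIs in the lowest cell, a median of 12 and 214 in the highest. The 10 cells with the most Malat1, at 76 UMIs or more, had median shares of 24.1% Ttr and 4.20% mitochondrial UMIs. Enpp2 had a ratio of 6.43, a lowest of 0, a median of 34 and a highest of 83. The cell at 0 for Enpp2 was also the highest for Cst3, at 155 UMIs. Without it, an alternative chosen after seeing the data, the ratio of Cst3 was 4.99 in place of 7.61, and Enpp2 began at 4 UMIs. Ecrg4 ran from 0 over 22 to 54 UMIs and was at 0 in 7 cells. Trpm3 ran from 0 over 7 to 58, and Htr2c from 0 over 2 to 24 and was at 0 in 44 cells. Igf2 ran from 0 over 1 to 26, and Fos from 0 over 0 to 14. Otx2, a low gene, was at 0 in 137 cells and never over 3. Clustered on the thinned counts, these cells fell into 5 groups of 18 to 59 cells whose median Ttr shares lay between 53.8 and 59.6%.

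**Figure D4:**
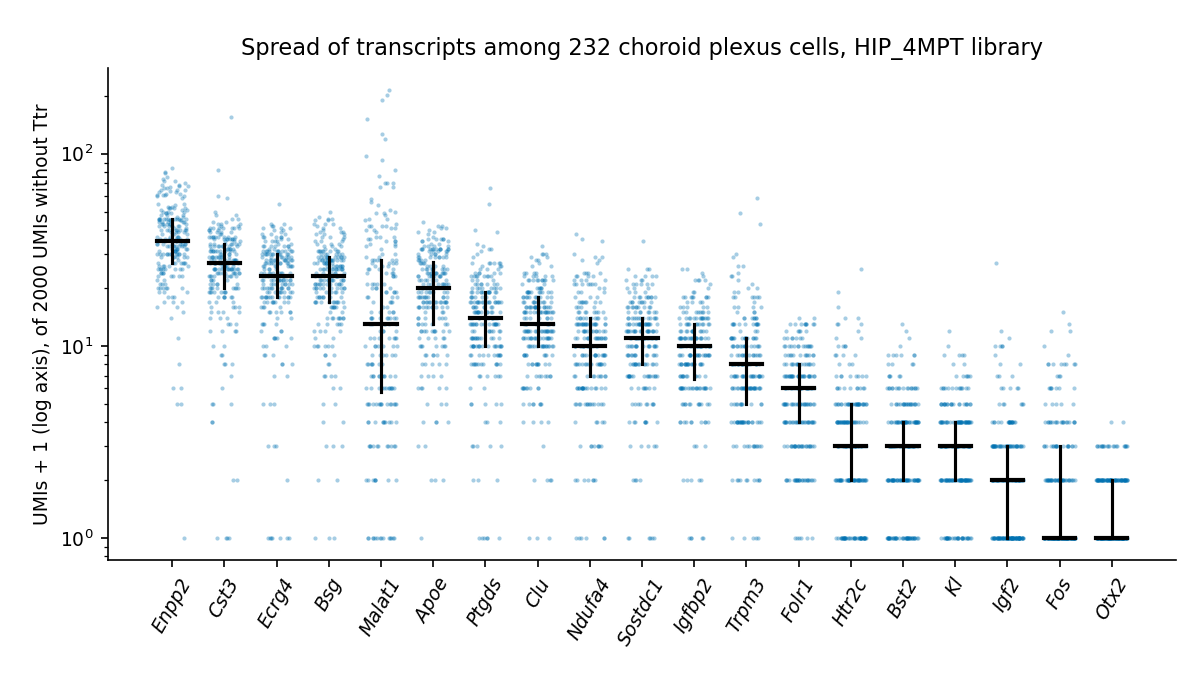
UMIs + 1 on a log axis for 19 genes in each of 232 choroid plexus cells thinned to 2000 UMIs other than Ttr, with the median as a wide bar and the quartiles as a vertical line. The quartiles were 26 and 45 UMIs for Enpp2, 17 and 29 for Ecrg4 and 4.75 and 27 for Malat1, which ran from 0 to 214.

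A small set of choroid plexus cells had little Ttr and many mitochondrial transcripts. The 7 cells with a Ttr share under 10% had 29 to 115 Ttr UMIs of 1450 to 4830, Ttr shares of 1.37 to 4.85%, and mitochondrial shares of 31.0 to 64.1%. All 7 were choroid plexus-like, and they held 4 to 34 Enpp2 UMIs. In the 21 cells with a mitochondrial share of 15% or more the median Ttr share was 15.1% and the median depth 3115 UMIs, and in the other 321 cells they were 58.9% and 13339 UMIs. Per Enpp2 UMI there were 19.3 Ttr UMIs (17.9 to 20.7) in the 21 cells and 74.9 (74.1 to 75.7) in the 321. Per Ecrg4 UMI there were 131 (109 to 159) and 122 (120 to 124), and per Sostdc1 UMI 184 (148 to 232) and 254 (249 to 259), so the difference depended on the gene.

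**Figure D5:**
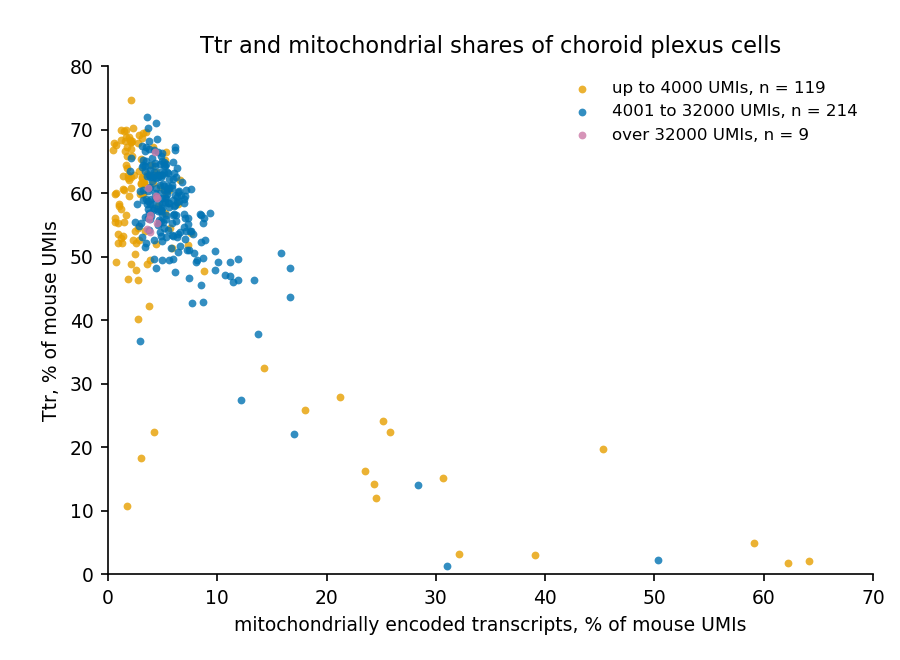
Each point is 1 of the 342 choroid plexus cells, with its mitochondrial share of mouse UMIs on the x axis and its Ttr share on the y axis, coloured by depth. Most cells lay at a Ttr share over 40% and a mitochondrial share under 15%, and the 7 cells under 10% Ttr lay at mitochondrial shares of 31.0 to 64.1%.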

How the data were processed

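Single cells of 4 graft libraries were analysed. The authors deposited UMI counts per gene and barcode from Cell Ranger (5.0.0 in the file headers, 3.1 in the submitters' processing notes) on a joint human and mouse reference. The mouse genes carry the prefix mm10, and the study's methods name GRCm39. The limits of 20 and 80% on the human share follow the study's methods. The graft libraries held 14286046 (HIP_2MPT), 17541670 (PFC_2MPT), 33907594 (HIP_4MPT) and 25815271 (PFC_4MPT) UMIs.

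The members, gene lists and rules were chosen with earlier results of these data known. Counts were summed over cells and divided by total mouse UMIs, with a pseudocount of 1 CPM for log2 ratios and lists, and none for folds. Genes named were the 4 given markers, all list genes, the 15 highest and 10 lowest by ratio, the 10 most abundant and the 10 most variable. Host cells were clustered with scanpy 1.11.5 (2000 variable genes, 30 components, 15 neighbours, Leiden resolution 0.8). A cluster took the name of the marker list with the highest median log2 ratio against all other host cells. That median had to be above 1, with 3 or more markers detected. Further limits on the 10 top genes of the cluster and on the second-best list left some clusters unnamed. Shares of cells with a UMI were compared after thinning each cell to 1000 UMIs. Splits by depth, Ttr left out of the totals and comparisons without choroid plexus-like cells were added after seeing the data. No doublets were removed. No sequences of mouse genes are shown. Some genes of the lists are not reported here by name, though the lists' counts include them.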

Additional observations from a re-analysis of the deposited data

Results flagged for a closer look

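Outside the host cells, 40 barcodes of HIP_4MPT with a human share of 20 to 80% had 3 or more UMIs of mouse Folr1 and Kl, and 7 barcodes with a human share over 80% did. No such barcode was found among the 560 and 9049 of HIP_2MPT, the 76 and 6122 of PFC_2MPT or the 2278 and 9932 of PFC_4MPT. The 40 had a median of 1302.5 mouse UMIs and a Ttr share of 52.9%, and the 7 a median of 833 and 55.9%. The 40 were in no comparison of the report, and the 7 were among its 7078 human barcodes. Whether they held a plexus cell with human RNA or a human cell with plexus RNA was not tested.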

How the results depend on the processing

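No paired analysis was possible because each group is 1 library, and for the same reason no library could be left out. The number of choroid plexus cells in HIP_4MPT, 342, lay between 270 (5 or more UMIs of Folr1 and Kl) and 468 (all cells of the choroid plexus-like clusters). Their Ttr level, 577880 CPM, was 574737 with 2 or more UMIs, 580861 with 5 or more, 583420 in cells under 15% mitochondrial share, 579160 without cells holding 5 or more UMIs of other types' markers, 555481 with each cell given the same weight, and 567357 per all UMIs, human and mouse. Of genes past 4-fold, 436 higher and 3560 lower, a minimum of 200 UMIs left 200 and 1921, a pseudocount of 10 CPM 157 and 1309, a limit of 2-fold gave 771 and 6761, and Ttr left out of the totals, an alternative chosen after seeing the data, 851 and 1784. Under the other 12 alternatives 380 to 580 were higher and 3127 to 4448 lower. With Ttr left out, no gene was lower (0) in the lists of ion and water transport, receptors and forebrain position, 3 in place of 5 were lower in MHC class I, and 2 interferon, 1 inflammation, 5 mitochondrially encoded and 6 nuclear respiratory genes were higher. Without thinning the share of cells with an Otx2 UMI was 57.6% in place of 11.7%. Counts limit the low genes most. The depth of single cells limits shares of cells with a UMI for genes such as Otx2. Ttr was in 100% of the choroid plexus cells with and without thinning.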
